A study of Homo sapiens with 4 samples.

Results

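The comparison described here is that of OCT4 knock-down cells with mock-treated cells of the human embryonal carcinoma line NCCIT. Its members are the 3 arrays labelled as OCT4 knock-down and the 3 labelled as mock, 6 of the 12 arrays and 2 of the 4 samples of the series; they were chosen by these labels alone. NCCIT is an established line from a mixed germ cell tumour that grows as undifferentiated, pluripotent cells, and each array measured total RNA of 1 of 3 biological replicates on an Illumina BeadChip with 47289 probes. All groups were cultured in high-glucose DMEM with fetal calf serum and, by their labels, harvested at day 2.5, from which the study's methods differ. The mock cells received the transfection reagent Hyperfect alone, and the OCT4 knock-down cells received it together with esiRNA, a pool of short interfering RNAs that an endoribonuclease cuts from 1 long double strand, here made against the OCT4 message. The NANOG and SOX2 knock-down samples of the series, treated in the same manner with esiRNA against those messages, are used only to show where the OCT4 knock-down differs. Mock cells carried no unrelated esiRNA, so effects of silencing OCT4 and effects of carrying an esiRNA cannot be told apart in this comparison.

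OCT4, encoded by POU5F1, is a POU homeodomain factor of the early embryo, of germ cells and of embryonal carcinoma cells. Together with SOX2 it binds composite sites beside many genes of the pluripotent state, NANOG and its own gene among them, and these factors form a circuit that keeps the cells undifferentiated. Cells that lose OCT4 leave this state, and which lineage they enter depends on the cell and its culture. The question of the comparison is which transcripts depend on OCT4 in these cells.

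The esiRNA pool was made from a PCR product of 620 bp of the OCT4 transcript. Its primers, taken from the study's primer list, are shown because they fix the stretch of the message that was silenced; each has 20 bases.
forward: gagaaggagaagctggagca
reverse: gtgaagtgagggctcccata

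The target itself was lost. POU5F1 stood at 9.39, 9.12 and 9.26 on the normalized log2 scale on the mock arrays and at 5.32, 5.10 and 4.73 on the knock-down arrays. Every knock-down array lay far below every mock array, and only 1 of the 3 knock-down arrays still detected the transcript. It fell by 4.21 on the log2 scale (SE 0.15, 95% confidence interval -4.55 to -3.87, adjusted p = 2.77e-07 by limma with Benjamini-Hochberg adjustment, as for each adjusted p given here). The SOX2 knock-down arrays had it at 5.0, 4.81 and 4.97, as low as the OCT4 knock-down arrays, so its loss sets the OCT4 knock-down apart from mock and not from the silencing of SOX2.

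NANOG, the homeobox partner of OCT4 in the circuit, was lost with it. Its signal was 8.42, 8.50 and 8.32 on the mock arrays and 4.83, 4.86 and 4.99 on the knock-down arrays, none of which detected it. The groups lay far apart. A probe that no array of a group detects has only a bound there: the brighter group's mean was set against the mean, over the arrays of the dim group, of the higher of the probe's own value and the lowest value among detected probes. On that basis NANOG was at least 9.34-fold lower (adjusted p = 4.58e-08). SOX2, the other factor of the circuit, is not named here.

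The change went far beyond the circuit. A probe was tested where all 3 arrays of at least 1 group detected it (detection p of at most 0.01), and called where the adjusted p was under 0.01 and the change at least 1.5-fold. Of 12152 probes tested, 2969 were called (24.4%), 1660 of them higher in the OCT4 knock-down (13.7%) and 1309 lower (10.8%). By the fitted change, at least 2-fold changes made up 824 of the calls higher and 457 of those lower. At least 4-fold changes made up 233 and 94, and at least 8-fold changes 80 and 27. Gains outnumbered losses at each of these steps of the fitted change. Probes that no array of 1 group detected entered with their fitted value, not their bound. They made up 506 of the calls higher and 92 of those lower, and the steps were not counted with bounds. The median over all probes tested was -0.03, which quantile normalization holds near zero.

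That balance depends on how the arrays are scaled. Raw median signals were 104.7, 97.5 and 99.6 on the mock arrays and 124.2, 117.1 and 115.9 on the knock-down arrays, which also detected more probes (12762, 12611 and 12858 against 11196, 11709 and 11578). With each array scaled to the same median in place of quantile normalization, the median over all probes tested moved to 0.58 and the calls to 5975 higher and 334 lower. With scaling to the median of the probes detected on all 12 arrays, added after the data were seen, it moved to -0.11 and the calls to 1382 higher and 1631 lower. For lists whose fall depends on the scaling, medians are therefore given relative to the median of all probes tested as well (either other scaling shifts each array by a constant, so these have a single value under both), and counts under median scaling, the more distant alternative, stand beside them. Which scaling is nearer to the RNA content of the cells was not tested.

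Some probes passed the filter through 1 group only. Of 740 probes detected on all 3 knock-down arrays and on no mock array, 506 were called higher. In the other direction, 94 probes were detected on all 3 mock arrays and on no knock-down array, and 92 of them were called lower. Among the 10290 probes detected on all 6 arrays 965 were called higher and 1125 lower. The knock-down arrays detected more probes to begin with and the change itself decides these classes, so nothing is drawn from their sizes.

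**Figure D1:**
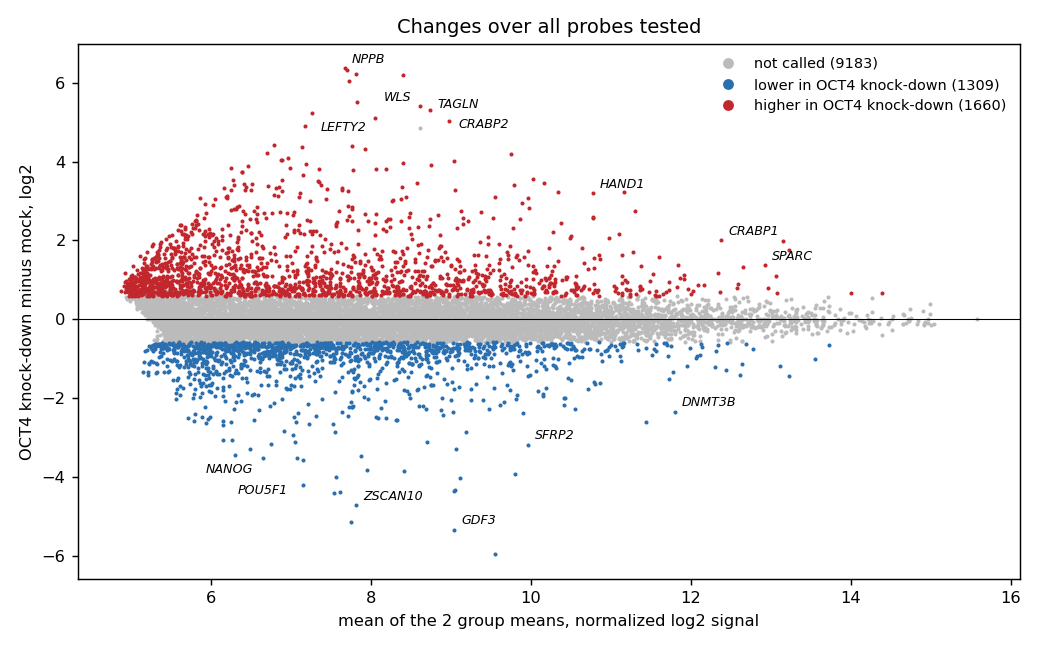
Change of each of the 12152 probes tested (OCT4 knock-down minus mock, log2, vertical axis) against the mean of both group means (normalized log2 signal, horizontal axis), 1 point a probe, with 1660 called higher in red, 1309 called lower in blue and the others in grey. Named points run from GDF3 at -5.34 to NPPB, undetected in mock cells, at 6.37; the split between higher and lower turns to 5975 and 334 under median scaling and to 1382 and 1631 under scaling to the probes detected on all 12 arrays.

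Genes could be named for part of the probes only. Symbols came by probe from the study's own table of genes it called changed in any of its knock-downs, and 2640 probes have a current symbol, 2630 of them tested, from 2547 genes. Because that table was made from these arrays, the share of named probes that were called is no evidence about a list. Statements on a list cover its named probes only, and nothing is read from them about the list as a whole. Many list entries have no tested named probe, and unchanged members can be missing for that reason. Of the called probes, 855 have no symbol here, among them the one with the steepest fall, at -5.97. Gene lists are described by how many tested named probes rose, fell or were not called, beside the shares over all probes given above; over the 2630 named probes tested, 1252 rose and 862 fell and the median was 0.54, so that a list median between -0.03 and 0.54 is above that of all probes and below that of the named ones.

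**Figure D2:**
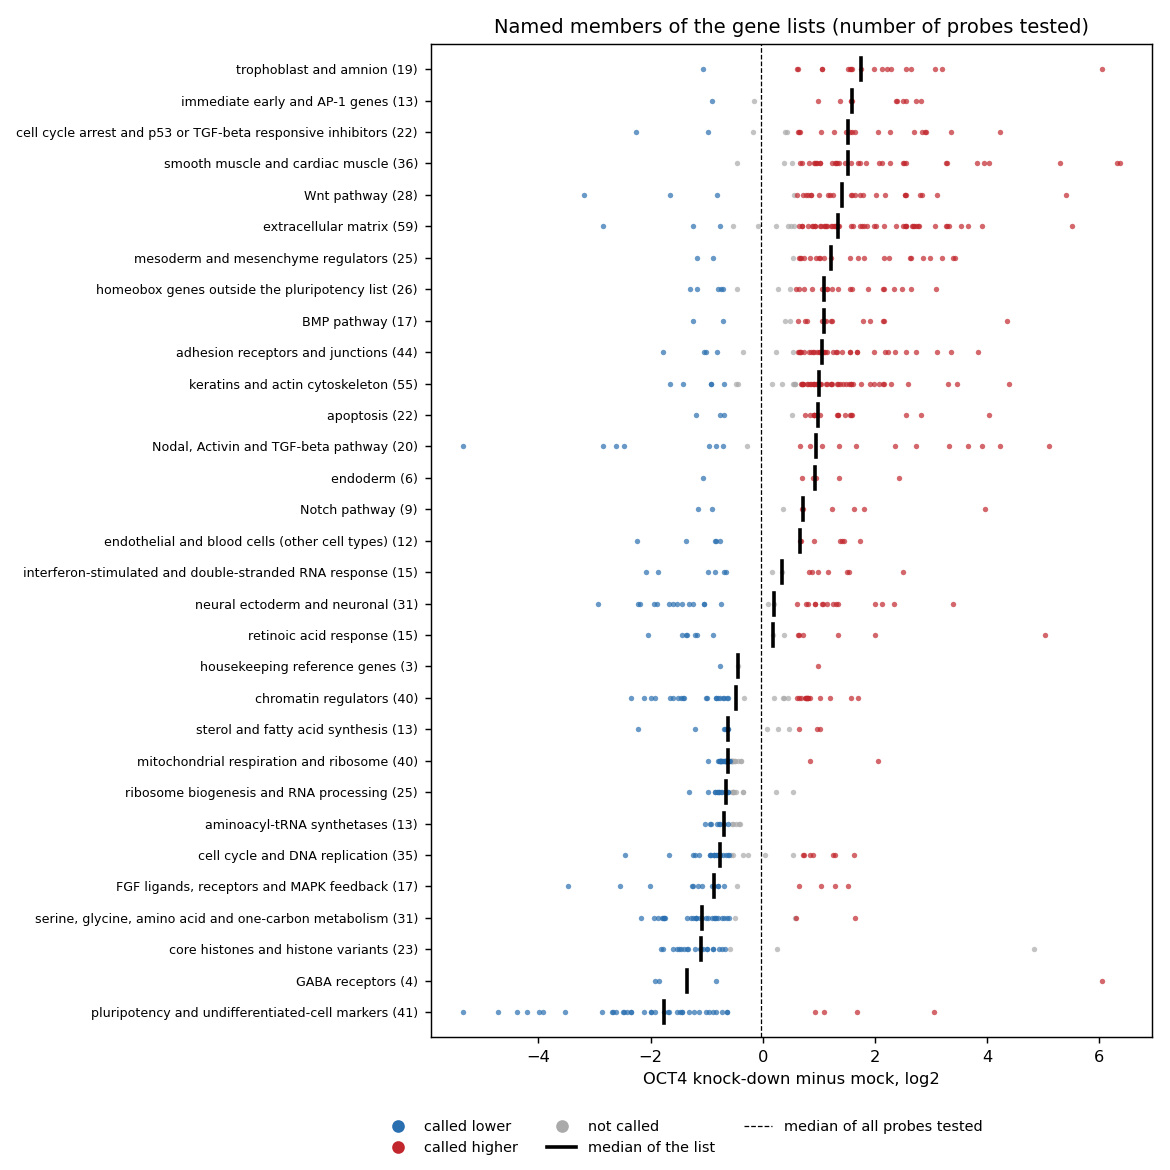
Change (OCT4 knock-down minus mock, log2) of every tested named probe of 31 gene lists, 1 point a probe, red called higher, blue called lower and grey not called, with the list median as a black bar and the median of all probes tested (-0.03) as a dashed line. Pluripotency markers have the lowest median (-1.76) and the trophoblast and amnion list the highest (1.76), though under either other scaling the immediate early list lies higher (2.30 against 2.19 and 1.62 against 1.51); under median scaling the chromatin list moves from -0.48 to 0.19 and so changes sign, and calls in the chromatin, cell cycle, sterol, ribosome biogenesis, mitochondrial and retinoic acid lists turn to more higher than lower.

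Most named pluripotency markers fell. Of 41 tested probes for markers of undifferentiated cells, 37 fell and 4 rose. Their median change was -1.76 (-1.69 with undetected probes at their bounds), against -0.03 over all probes tested and 0.54 over the named ones. Under median scaling 29 fell and 4 rose. Relative to all probes tested the list's median was -1.73, and -1.65 under either other scaling. GDF3, a ligand of the TGF-beta family typical of undifferentiated embryonal carcinoma, had 11.73, 11.68 and 11.73 on the mock arrays and 6.36, 6.19 and 6.57 on the knock-down arrays. The mock arrays lay within a narrow band and the knock-down arrays all lay below it, with no overlap. It fell by 5.34 (SE 0.10, adjusted p = 2.97e-08), the largest fall among named genes detected on all 6 arrays.

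ZSCAN10, a zinc finger factor of embryonic stem cells, had 10.30, 10.18 and 10.05 on the mock arrays and 5.50, 5.29 and 5.59 after silencing. It fell by 4.72 (SE 0.10, adjusted p = 3.63e-08), and the groups did not overlap. DPPA3, a maternal and germ cell protein that guards DNA methylation in the zygote, gave 9.61, 9.96 and 9.83 on the mock and 5.40, 5.22 and 5.66 on the knock-down arrays. Low as it was on each of the latter, it stayed detected there, and it fell by 4.37 (SE 0.13). UTF1, a chromatin-bound factor of undifferentiated cells, had 11.83, 11.65 and 11.81 on the mock arrays and 7.79, 7.86 and 7.87 on the knock-down arrays. It fell by 3.92 (SE 0.08, adjusted p = 2.98e-08). VENTX, a homeobox gene, fell by 4.0 (SE 0.08) and DPPA4, a DNA-binding protein of pluripotent cells, fell by 2.87 (SE 0.10). HESX1, a homeobox repressor of the early forebrain that is also found in stem cells, was no longer detected and was at least 4.92-fold lower (adjusted p = 2.98e-06).

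Further losses fell on genes that have been tied to self-renewal and to the tumour line's identity. KLF4, a zinc finger factor used in reprogramming, went from 9.30 ± 0.09 to 6.82 ± 0.08 (mean and SD, n = 3 arrays a group). CRIPTO, the co-receptor of Nodal, went from 12.74 ± 0.04 to 10.14 ± 0.15. TERF1, which binds telomere repeats, fell by 2.35 on the brighter of its probes (SE 0.09), and PRDM14, a regulator of the germ line and of pluripotency, was at least 3.51-fold lower (adjusted p = 2.15e-07) and undetected after silencing. LIN28A, an RNA-binding protein that blocks let-7 maturation, fell by 0.64 (SE 0.10, adjusted p = 0.000856), and SALL4, a zinc finger factor, fell by 0.65 (SE 0.08), both without a call under median scaling. The line's defining markers POU5F1, NANOG, DPPA4, GDF3, CRIPTO, LIN28A, UTF1 and DNMT3B were all detected on the 3 mock arrays, which fits the label of the cells.

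The 4 members that rose were KLF5, CDH1, EPCAM and SOX3. KLF5, a Krüppel-like factor of stem cells and of epithelia, was undetected in mock cells and at least 4.37-fold higher after silencing (adjusted p = 7.48e-08). CDH1, the epithelial cadherin, rose by 1.69 (SE 0.09), and EPCAM, an epithelial adhesion molecule, by 1.09 (SE 0.12). SOX3, a relative of SOX2 in the early neural plate, was at least 1.43-fold higher (adjusted p = 0.00198). These samples are bulk RNA, so fewer cells of a type and less RNA per cell cannot be told apart for any loss given here.

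**Figure D3:**
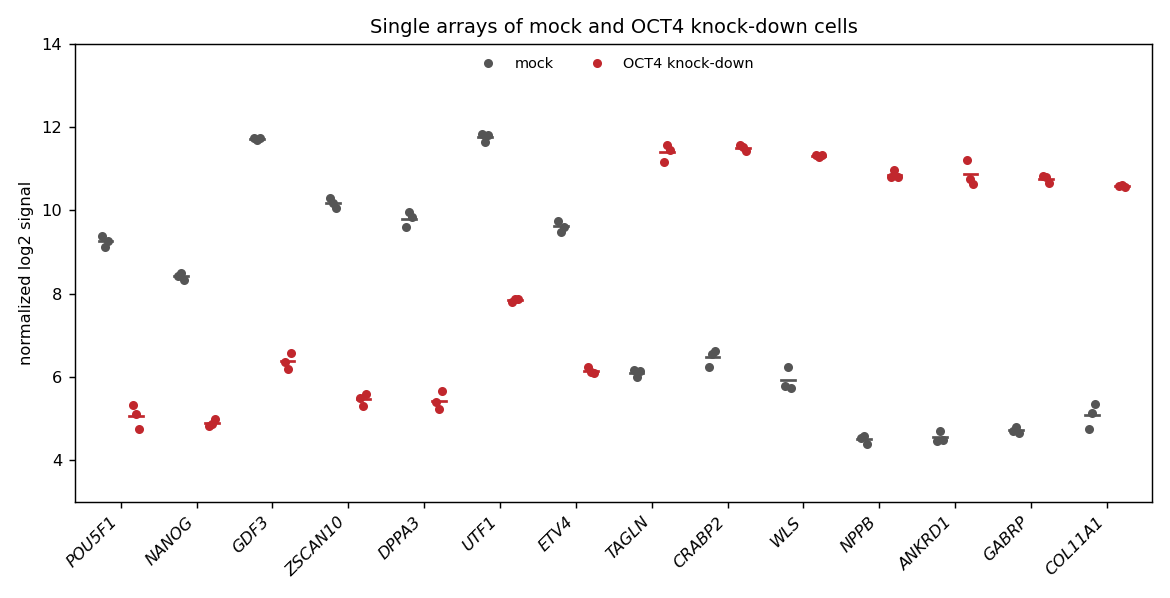
Normalized log2 signal (vertical axis) of 14 named genes on each of the 3 mock arrays (grey) and the 3 OCT4 knock-down arrays (red), 1 point an array, with bars at the group means. For each gene the groups lie apart, as for POU5F1 (9.25 against 5.05), GDF3 (11.71 against 6.38) and TAGLN (6.09 against 11.40).

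Most named FGF genes fell under quantile normalization. In the list of FGF ligands, receptors and feedback genes, 12 of 17 probes fell, 4 rose and 1, ETV5, was not called, with a median of -0.88; under median scaling 5 fell and 4 rose, and the median was -0.20. Relative to all probes tested it was -0.85, and -0.77 under either other scaling. ETV4, an ETS factor switched on by FGF signals, had 9.76, 9.49 and 9.60 on the mock arrays and 6.24, 6.10 and 6.09 on the knock-down arrays. Well apart in its groups, ETV4 fell by 3.47 (SE 0.09), the steepest loss of the list. FGF19, a secreted ligand, fell by 2.54 (SE 0.14) and was detected on 2 of the 3 knock-down arrays. FGF2, the ligand added to human embryonic stem cell cultures, was undetected after silencing and at least 1.69-fold lower (adjusted p = 0.000412). Among receptors FGFR3 fell by 1.25 and FGFR4 fell by 1.16, and the feedback inhibitors SPRY1, SPRY4 and DUSP6 changed by -0.91, -0.79 and -0.69; of these 5, only FGFR3 keeps its call under median scaling. ANOS1, a matrix protein that acts on FGF receptors, fell by 2.02 (SE 0.07). The 4 that rose were FGF18, a ligand, at least 1.49-fold (adjusted p = 1.42e-05), the decoy receptor FGFRL1 by 1.30, the adhesion protein FLRT3 by 1.04 and the heparan sulphate proteoglycan GPC1 by 0.64. The call for FGF18 is lost without background correction.

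Members of the Nodal, Activin and TGF-beta pathway went both ways. Of 20 probes, 12 rose and 7 fell, with a median of 0.95 (0.88 with bounds); under median scaling 12 rose and 4 fell. Beside GDF3 and CRIPTO, the activin subunit INHBE fell by 2.48 (SE 0.07). The Nodal antagonists differed in direction. LEFTY2 had 5.41, 5.68 and 5.40 on the mock arrays, 1 of which detected it, and 10.56, 10.67 and 10.57 on the knock-down arrays. It was bright on each of the latter and rose by 5.10 (SE 0.09, adjusted p = 2.93e-08). LEFTY1 fell by 0.97 (SE 0.08), a call that median scaling loses. Both genes are close copies of each other, so which of them a probe measured is uncertain, as it is for the clustered histones and for POU5F1 and NANOG with their pseudogenes. Among members that rose were TGFBI, a matrix protein, by 3.32 (SE 0.08), and PMEPA1, which dampens the pathway, by 2.35 (SE 0.09). CCN2, a matricellular growth factor, went from 9.94 ± 0.05 to 12.67 ± 0.02.

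Most named core histone genes fell. Of 23 tested probes for core histones and variants, 20 fell, 0 rose and 3 were not called, with a median of -1.10 (-1.01 with bounds); under median scaling 12 fell and 2 rose. Relative to all probes tested the median was -1.07, and -1.17 under either other scaling. H2AC25, an H2A gene, fell by 1.82 (SE 0.17), H3C14, an H3 gene, fell by 1.79 (SE 0.11), H4C14 fell by 1.61 (SE 0.08) and H4C8 fell by 1.52 (SE 0.08), both H4 genes. The 3 without a call were H2AX, the variant phosphorylated at DNA breaks, at -0.58, MACROH2A1, a large variant of silent chromatin, at 0.25, and H2AZ2, described with the SOX2 knock-down.

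H2BC11, an H2B gene, is shown with its 250 bases before the start in RefSeq (GRCh38.p14, minus strand, chr6:27132796-27133045) because many histone promoters hold the octamer ATGCAAAT, the motif of POU factors, here in capitals on the opposite strand 47 bases before the start.
H2BC11: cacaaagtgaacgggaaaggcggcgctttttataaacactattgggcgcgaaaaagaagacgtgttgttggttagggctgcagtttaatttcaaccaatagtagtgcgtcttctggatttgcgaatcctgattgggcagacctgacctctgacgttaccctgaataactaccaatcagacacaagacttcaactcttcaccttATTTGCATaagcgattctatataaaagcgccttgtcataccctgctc
H2BC11 had 8.70, 8.81 and 8.82 on the mock arrays and 7.46, 7.39 and 7.51 on the knock-down arrays. It fell by 1.32 (SE 0.07) with no overlap of the groups. In the counts that follow only genes with a window of this kind enter, which leaves out some of the histone genes tested. With both strands read, the octamer stands in this window of 11 of 20 genes of the histone list (55%) and of 11 of the 17 called lower (64.7%), of 28 of 671 genes called lower in all (4.17%) but of 17 of the 654 outside that list (2.6%), of 24 of 952 called higher (2.52%) and of 554 of 27305 genes of the table (2.03%). The letters and the promoter were chosen after the matches were seen, and octamers before histone genes are best known for binding OCT1, so a match is a description, not a site or a cause.

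Chromatin regulators split. Of 40 probes, 20 fell and 15 rose, with a median of -0.48; under median scaling 10 fell and 19 rose and the median turned to 0.19, while relative to all probes tested it was -0.45, and -0.39 under either other scaling. DNMT3B, the de novo DNA methyltransferase of the early embryo, had 12.90, 13.04 and 12.98 on the mock arrays and 10.68, 10.53 and 10.68 on the knock-down arrays. It was down-regulated on every array and fell by 2.34 on average (SE 0.08). JARID2, a partner of Polycomb repressive complex 2, fell by 2.0 (SE 0.09). The Polycomb subunit PHC1 fell by 1.92 (SE 0.08) and its relative PHC2 rose by 1.70 (SE 0.09). BCOR, a corepressor, fell by 1.60 and HDAC9, a class II histone deacetylase, was at least 1.58-fold higher (adjusted p = 2.42e-06). EZH2, the methyltransferase of Polycomb repressive complex 2, was not called at -0.34 (adjusted p = 0.0274).

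Named replication and mitosis genes were mostly lower under quantile normalization. In the cell cycle list 22 of 35 probes fell and 7 rose, with a median of -0.75; 4 fell and 9 rose under median scaling, which so turns the balance of calls, and 25 fell and 8 rose under scaling to the probes detected on all 12 arrays. Relative to all probes tested its median was -0.73, and -0.72 under either other scaling. RFC5, a subunit of the clamp loader, had 8.57, 8.49 and 8.59 on the mock arrays and 5.96, 6.19 and 6.15 on the knock-down arrays. All knock-down arrays were below all mock arrays, and it fell by 2.45 (SE 0.08). CCNA1, the germ line cyclin A, fell by 1.67 (SE 0.20, adjusted p = 0.00025), a call lost with the methods' t-test after Benjamini-Hochberg adjustment. WEE1, the kinase that holds back entry into mitosis, rose by 1.62 (SE 0.09), and MYBL1, a MYB family factor undetected in mock cells, was at least 1.57-fold higher (adjusted p = 0.000155), without a call when no background was subtracted. Most named brakes of the cell cycle rose: 17 of 22 probes for inhibitors and arrest genes rose and 2 fell, with a median of 1.52. Under median scaling 19 rose and 1 fell. Of the 22 probes, 5 were undetected in 1 of the groups and so tested only through the other. CDKN2B, the p15 inhibitor of cyclin D kinases, had 4.48, 4.55 and 4.76 on the mock arrays, none of which detected it, and 8.90, 8.79 and 8.77 on the knock-down arrays. It was at least 10.4-fold higher (adjusted p = 3.63e-08). SESN3, a sestrin of the stress and nutrient response, rose by 3.36 (SE 0.08), CDKN1A, the p21 inhibitor, by 1.65 (SE 0.08) and GADD45A, a growth arrest gene, by 2.06 (SE 0.07). PLAGL1, an imprinted zinc finger factor, and PLK2, a polo-like kinase, were at least 3.82-fold (adjusted p = 5.42e-07) and 4.08-fold higher (adjusted p = 3.78e-07). The 2 that fell were RPRM, a p53-induced inhibitor (-2.27), and SESN2, a sestrin (-0.98), the latter without a call under median scaling.

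Named genes of amino acid supply were mostly lower. In the list of serine, glycine, amino acid and one-carbon metabolism, 27 of 31 probes fell and 2 rose, among them the transporter SLC7A5 by 1.64; the median was -1.08, and 13 fell and 3 rose under median scaling. Relative to all probes tested it was -1.05, and -1.13 under either other scaling. CHAC1, which cleaves glutathione, went from 11.51 ± 0.08 to 9.34 ± 0.04, and CTH, which makes cysteine, from 10.64 ± 0.02 to 8.84 ± 0.12. SLC7A3, a carrier of arginine and lysine, was undetected after silencing and at least 2.47-fold lower (adjusted p = 3.46e-06). SLC38A5, a glutamine carrier detected on 1 of 3 knock-down arrays, fell by 1.95 (SE 0.08). PHGDH, the first enzyme of serine synthesis, fell by 1.01 (SE 0.08; no call under median scaling), ASNS, asparagine synthetase, fell by 1.78 (SE 0.07) and GLDC, which splits glycine, fell by 1.75 (SE 0.06).

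The falls of the translation and mitochondrial lists hang on the scaling. Of 13 probes for aminoacyl-tRNA synthetases 8 fell, 0 under median scaling and 13 under scaling to the probes detected on all 12 arrays, with medians of -0.70, -0.11 and -0.79. LARS2, the mitochondrial leucyl-tRNA synthetase, had a change of -1.04 (SE 0.08), AARS1, for alanine, -0.94 (SE 0.08), YARS1, for tyrosine, -0.93 and WARS1, for tryptophan, -0.82; none of these 4 is called under median scaling. Of 40 probes for mitochondrial respiration and ribosomes 24 fell and 2 rose (0 and 2 under median scaling, 38 and 2 under the added scaling). UQCR11, a complex III subunit, changed by -0.97 and IDH1, the isocitrate dehydrogenase of the cytosol, by -0.80, and both calls are lost under median scaling. The 2 members that rose were IDH2, the mitochondrial isocitrate dehydrogenase, by 2.06 (SE 0.08), and ETFA, which passes electrons from fatty acid oxidation, by 0.85 (SE 0.07). Of 25 probes for ribosome biogenesis and RNA processing 15 fell and 0 rose (1 and 2 under median scaling, so the balance turns). SURF6, a nucleolar protein, fell by 1.32 (SE 0.07); RRS1, RRP9 and MDN1, which act in ribosome assembly, changed by -0.97, -0.86 and -0.85, all without a call under median scaling, and MDN1 also without background correction and with offset normexp correction. Relative to all probes tested the medians of the 3 lists were -0.67, -0.59 and -0.63, and -0.69, -0.62 and -0.60 under either other scaling.

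In sterol and fatty acid synthesis 7 of 13 probes fell and 3 rose, with a median of -0.61; median scaling turns this to 2 lower and 6 higher, with a median of -0.06, while relative to all probes tested the median was -0.58, and -0.64 under either other scaling. ACSS1, a mitochondrial acetyl-CoA synthetase, fell by 1.20 (SE 0.08), without a call when no background was subtracted. The 3 that rose were the desaturase FADS1 by 1.01, the acyl-CoA synthetase ACSL1 by 0.97 and INSIG1, which retains the sterol sensor, by 0.64. GABA receptor genes traded places, with 3 of 4 lower (2 under median scaling) and 1 higher. GABRA5 fell by 1.92 (SE 0.09) and GABBR1, of the metabotropic receptor, fell by 0.83, which median scaling leaves without a call, whereas the pi subunit GABRP appeared.

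GABRP had 4.69, 4.79 and 4.66 on the mock arrays and 10.82, 10.80 and 10.66 on the knock-down arrays. No mock array detected it and every knock-down array did, and it was at least 39.8-fold higher (adjusted p = 8.48e-09). Other genes came from below detection as well. EDN1, a vasoconstrictor peptide, was at least 44.6-fold higher (adjusted p = 2.98e-08). ANKRD1, a cardiac ankyrin repeat protein, had 4.46, 4.70 and 4.47 and 11.21, 10.75 and 10.64, at least 42.8-fold more (adjusted p = 5.2e-08). NPPB, the B-type natriuretic peptide of the heart, had 4.53, 4.57 and 4.38 and 10.81, 10.96 and 10.81, at least 42.6-fold more (adjusted p = 8.48e-09). In both, all knock-down arrays were bright and all mock arrays undetected. COL11A1, a fibrillar collagen, was at least 35.3-fold higher (adjusted p = 6.15e-08), HTRA1, a secreted protease, at least 21.8-fold (adjusted p = 2.98e-08), ALPK2, an alpha-kinase of heart development, at least 18.1-fold (adjusted p = 1.51e-08) and GREM1, a BMP antagonist, at least 14.7-fold (adjusted p = 2.06e-07). Losses below detection were smaller by this measure: TMEM266, a voltage-sensor protein, was at least 6.07-fold lower (adjusted p = 9.19e-07), RHD, the Rhesus D antigen, at least 5.61-fold (adjusted p = 1.96e-07), CEND1, a neuronal differentiation protein, at least 5.15-fold (adjusted p = 5.02e-07) and TAFA4, a secreted neuropeptide, at least 4.16-fold (adjusted p = 6.95e-07).

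Genes of the muscle list rose in most probes tested, and 10 of its entries have no tested named probe. Of 36 probes of the smooth and cardiac muscle list 33 rose, 0 fell and 3 were not called, with a median of 1.52 (1.41 with bounds for 9 probes undetected in 1 group); under median scaling 35 rose and 0 fell. Their summed signal was 14997, 15220 and 14834 on the mock arrays and 44362, 46156 and 43836 on the knock-down arrays, with CNN3 the brightest. TAGLN, the smooth muscle actin-binding protein SM22, had 6.16, 5.99 and 6.14 on the mock arrays and 11.17, 11.57 and 11.45 on the knock-down arrays. The groups were far apart, and the rise was 5.30 (SE 0.11, adjusted p = 3.63e-08). MEF2C, a transcription factor of heart and muscle, went from 6.29 ± 0.23 to 10.11 ± 0.07. ACTA2, smooth muscle actin, was detected on 1 of 3 mock arrays and rose by 3.95 (SE 0.21), and ACTC1, cardiac actin, was at least 5.46-fold higher (adjusted p = 3.63e-08). CRYAB, a small heat shock protein of muscle, was at least 11-fold higher (adjusted p = 1.51e-08). The 3 not called were FILIP1 at -0.46, MEF2D at 0.37 and ACTG2, an enteric smooth muscle actin, at 0.53.

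Regulators of mesoderm and mesenchyme rose with them, 22 of 25 probes against 2 that fell, with a median of 1.21 (0.94 with bounds, as 11 of the probes were undetected in 1 of the groups and so tested only through the other); under median scaling 23 rose and 0 fell. HAND1, a basic helix-loop-helix factor of heart, lateral mesoderm and extraembryonic tissue, had 9.07, 9.25 and 9.20 on the mock arrays and 12.39, 12.38 and 12.36 on the knock-down arrays. It was already well detected in mock cells, and it rose by 3.20 (SE 0.07, adjusted p = 4.6e-08). TBX3, a T-box factor, was at least 6.43-fold higher (adjusted p = 3.63e-08) and PDGFRB, a receptor of mesenchymal cells, at least 5.82-fold (adjusted p = 6.83e-08). FOXC1, a forkhead factor of paraxial mesoderm, rose by 2.99 (SE 0.20), and RUNX1, a factor of blood formation, was at least 3.26-fold higher (adjusted p = 7.11e-07). The 2 that fell were NKX3-2, a homeobox gene of the axial skeleton (-1.17), and GLI2, an effector of Hedgehog signals (-0.89), both without a call under median scaling.

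Genes listed for trophoblast and amnion, many of them shared with other tissues, rose in 18 of 19 tested probes, with a median of 1.76; the exception was TFAP2A, an AP-2 factor, which fell by 1.07 (SE 0.12). Under median scaling 18 rose and 1 fell. Their summed signal was 15234, 14242 and 14421 on the mock arrays and 54243, 56156 and 54051 on the knock-down arrays, with KRT18 the brightest, and 8 of the probes were tested only through the group that detected them. Beside GABRP and HAND1, the amnion-expressed checkpoint protein VTCN1 was at least 3.87-fold higher (adjusted p = 3.63e-08), and ISL1, a LIM homeobox gene of amnion and heart, went from 5.70 ± 0.24 to 8.35 ± 0.03. GATA3, a zinc finger factor of trophoblast, rose by 0.63 (SE 0.07), less than KRT19 at 2.28 or PERP, a desmosomal protein, at 2.56. Another 22 entries of the list, CDX2 and KRT7 among them, have no tested named probe, and a part of other cell types in these changes was not tested. The paper reports CDX2, KRT7, CSH1 and HCG without significant expression on its arrays, in mock or OCT4 knock-down cells. By real-time PCR it found CDX2 and KRT7 raised only for a time.

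Matrix, adhesion and cytoskeletal genes rose in most of their named probes. Of 59 extracellular matrix probes 50 rose and 3 fell, with a median of 1.35 (1.23 with bounds for 14 probes undetected in 1 group), and 55 rose and 1 fell under median scaling. THBS1, an adhesive glycoprotein detected on 1 of 3 mock arrays, rose by 3.67 (SE 0.19) while its relative THBS2 fell by 2.84 (SE 0.08). HAPLN1, which links hyaluronan to proteoglycans, was at least 6.06-fold higher (adjusted p = 1.07e-07). Among basement membrane collagens COL4A1 rose by 3.07 (SE 0.08) and COL4A2 by 2.54 (SE 0.09), and FN1, fibronectin, rose by 2.73 (SE 0.08). The other losses were TIMP4, a protease inhibitor (-1.24), and COL9A1, a cartilage collagen (-0.76), both without a call under median scaling. HAS3, a hyaluronan synthase outside these lists, fell by 3.85 (SE 0.09), and so did TMT1A, a thiol methyltransferase (-4.34, SE 0.10), and PDZD4 (-3.29, SE 0.08).

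Adhesion receptors and junction genes rose in 37 of 44 probes, with a median of 1.05 (1.03 with bounds). Of the 44 probes, 7 were undetected in 1 of the groups and so tested only through the other. Under median scaling 39 rose and 1 fell. CDH11, the cadherin of mesenchyme, had 4.36, 4.34 and 4.30 and 8.29, 8.03 and 8.18, from undetected to detected on every array, and was at least 6.58-fold higher (adjusted p = 3.63e-08). CDH3, placental cadherin, was at least 4.91-fold higher (adjusted p = 8.6e-08), PCDH7, a protocadherin undetected in mock cells, was at least 8.52-fold higher (adjusted p = 3.78e-07) and DSC2, a desmosomal cadherin, rose by 2.73 (SE 0.19). CLDN5, a tight junction protein, rose by 1.42 (SE 0.19, adjusted p = 0.000374), a call lost with the methods' t-test after Benjamini-Hochberg adjustment. The 4 that fell were CLDN14 (-1.78), the integrin ITGA9 (-1.05), PCDH1 (-1.02) and F11R, a junctional adhesion molecule (-0.82), of which only CLDN14 keeps its call under median scaling. Of 55 keratin and actin cytoskeleton probes 42 rose, 5 fell and 8 were not called. The median was 1.0 (0.92 with bounds for 6 probes undetected in 1 group), and under median scaling 47 rose and 2 fell. PDLIM1, an actin-associated LIM protein, rose by 4.39 (SE 0.09), ANXA1, a membrane-binding annexin, by 3.47 (SE 0.10), ANXA3 by 3.31 and CAPN2, a calpain protease, by 2.58. PALLD, an actin-bundling protein outside that list, rose by 4.20 (SE 0.07) and NEDD9, a focal adhesion scaffold, by 3.81 (SE 0.13). LMCD1, a LIM protein of the heart, rose by 4.02 (SE 0.07) and KANK4, an ankyrin repeat protein, by 3.50 (SE 0.14). Those of the list that fell include ACTN3 and, with calls lost under median scaling, TUBE1, CORO2A and the dimmer probe of TPM3.

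Wnt genes rose in 24 of 28 probes, with a median of 1.42 (1.19 with bounds for 7 probes undetected in 1 group), and in 25 under median scaling. WLS, which carries Wnt ligands to the cell surface, had 5.78, 6.24 and 5.74 on the mock arrays and 11.34, 11.29 and 11.32 on the knock-down arrays. Dim on each of the former and bright on each of the latter, it rose by 5.40 (SE 0.13, adjusted p = 5.4e-08), the most among named genes detected on all 6 arrays. SFRP1, a secreted Wnt antagonist, rose by 3.11 (SE 0.12) and PRICKLE2, of planar cell polarity, by 2.85 (SE 0.08). The ligands WNT5A and WNT5B rose by 1.58 and 1.73, the receptor FZD2 by 2.53, and LEF1, a nuclear effector, was at least 3.36-fold higher (adjusted p = 7.15e-07). The 3 that fell were SFRP2, the Groucho corepressor TLE2, at least 2.6-fold (adjusted p = 4.09e-05), and TCF7L1, a repressor of Wnt targets in stem cells (-0.82), the last without a call under median scaling.

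SFRP2, a close relative of SFRP1, moved the opposite way, from 11.59, 11.56 and 11.52 on the mock arrays to 8.33, 8.44 and 8.36 on the knock-down arrays. It fell by 3.18 (SE 0.07, adjusted p = 3.63e-08), and the groups did not overlap. Its 250 bases before the start in RefSeq (GRCh38.p14, minus strand, chr4:153789084-153789333) are shown for a match, with the octamer in capitals on the opposite strand 35 bases before the start.
SFRP2: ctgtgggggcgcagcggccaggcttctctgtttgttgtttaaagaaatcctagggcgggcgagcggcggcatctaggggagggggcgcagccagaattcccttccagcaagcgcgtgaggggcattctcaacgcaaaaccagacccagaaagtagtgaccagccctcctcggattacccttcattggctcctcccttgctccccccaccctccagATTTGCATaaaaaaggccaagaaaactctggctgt
The promoter was picked after its match was seen, and shares over other genes are those given for H2BC11.

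BMP genes rose in 13 of 17 probes and fell in 2, with a median of 1.09 (1.0 with bounds for 5 probes undetected in 1 group). Under median scaling 15 rose and 1 fell. BMP4, a ligand that drives mesoderm and amnion, rose by 2.15 (SE 0.07), and MSX1, a homeobox target of BMP signals, was at least 3.03-fold higher (adjusted p = 3.29e-06). GREM1, which binds and blocks BMP ligands, went from 4.80, 5.22 and 4.86 to 9.54, 9.14 and 9.28, from undetected on each mock array to bright on each knock-down array. BMP1, a procollagen protease, was at least 3.02-fold higher (adjusted p = 1.65e-06). The 2 that fell were the receptor BMPR1A (-1.24) and the co-receptor RGMA (-0.71), the latter not called under median scaling.

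Most named stress and death genes rose. Of 22 apoptosis probes 18 rose and 3 fell, with a median of 0.99 (0.93 with bounds for 4 probes undetected in 1 group). Under median scaling 19 rose and 1 fell. TNFRSF19, a receptor of the TNF family, was at least 10.9-fold higher (adjusted p = 5.89e-08), and IER3, an early response gene that tempers cell death, rose by 2.82 (SE 0.10). The 3 that fell were PMAIP1, which antagonises MCL1 (-1.19), BNIP3, of mitophagy (-0.76), and BAK1, which perforates mitochondria (-0.68), and of them PMAIP1 alone keeps its call under median scaling. Immediate early and AP-1 genes rose in 11 of 13 probes, with a median of 1.58 (1.57 with bounds), and in 11 under median scaling. Of the 13 probes, 4 were undetected in 1 of the groups and so tested only through the other. JUN was at least 4.59-fold (adjusted p = 9.29e-08) and FOSL2 at least 5.26-fold higher (adjusted p = 4.73e-07), both subunits of AP-1, whereas FOS, their partner, fell by 0.90 (SE 0.08), a call lost under median scaling, and EGR1 was not called at -0.15. HBEGF, a ligand of the EGF receptor outside these lists, rose by 3.79 (SE 0.15) and RCAN1, an inhibitor of calcineurin, by 3.57 (SE 0.07).

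Notch and homeobox genes rose in part. Of 9 Notch probes 6 rose and 2 fell, both of the latter for RBPJ, the DNA-binding effector (-0.91 on the brighter probe); under median scaling 0 fell. HES4, a repressor of the HES family, had 6.34, 6.37 and 6.56 on the mock arrays and 10.23, 10.59 and 10.34 on the knock-down arrays. These did not overlap, and it rose by 3.96 (SE 0.11). NOTCH2, detected on 1 of 3 mock arrays, rose by 1.62 and HEY1, a target of the pathway, by 1.23. DLK1, an imprinted atypical ligand, was at least 1.99-fold higher (adjusted p = 8.08e-06). Homeobox genes outside the pluripotency list rose in 18 of 26 probes and fell in 5 (20 and 1 under median scaling), with a median of 1.10 (0.75 with bounds for 8 probes undetected in 1 group). DLX2, a regulator of forebrain and neural crest, rose by 3.09 (SE 0.10) from 8.0 to 11.09, and PKNOX2, a TALE factor, was at least 3.04-fold higher (adjusted p = 2.21e-07). The 5 that fell were CDX4, NKX3-2, IRX1, POU6F1 and TGIF2, with changes of -1.30, -1.17, -0.80, -0.75 and -0.71, and only CDX4 keeps its call under median scaling.

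Neural genes went both ways. Of 31 probes 15 rose and 14 fell, with a median of 0.20 (16 and 11 under median scaling), and the summed signal was 13947, 14703 and 14526 on the mock arrays and 23940, 24862 and 24417 on the knock-down arrays, a rise mainly of CRABP1, as the list's mean log2 signal was 7.86, 7.93 and 7.87 on the former and 7.87, 7.81 and 7.85 on the latter. CNTNAP2, a neurexin-like adhesion protein, rose by 3.39 (SE 0.07), LHX2, a LIM homeobox gene of forebrain and eye, by 2.34 (SE 0.10) and NES, the intermediate filament nestin of progenitors, by 2.13 (SE 0.08). PTPRZ1, a receptor phosphatase of glia, fell by 2.22 (SE 0.11) and FEZ1, which guides axon outgrowth, fell by 1.89 (SE 0.08) on the brightest of its 3 probes. Retinoic acid genes were divided too, 6 higher and 7 lower of 15 (8 higher and 5 lower under median scaling), with a median of 0.18. CRABP2, which carries retinoic acid to its nuclear receptor, had 6.24, 6.54 and 6.61 on the mock arrays and 11.56, 11.52 and 11.43 on the knock-down arrays. It was dim on each mock array and bright on each knock-down array, and it rose by 5.04 (SE 0.11, adjusted p = 3.63e-08). Its relative CRABP1 rose by 2.0 (SE 0.07) from an already bright 11.38. RARRES2, the adipokine chemerin, fell by 2.04 (SE 0.08), HSD17B6, a steroid and retinol dehydrogenase, fell by 1.44, and CYP26A1, which degrades retinoic acid, fell by 1.37 on the brighter of its probes.

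Endoderm was covered by 6 probes, of which 5 rose (5 under median scaling), with 23 entries of the list lacking a tested named probe. Their summed signal was 5957, 5978 and 5948 on the mock arrays and 14736, 14907 and 14209 on the knock-down arrays, with SPARC the brightest, a matrix protein also made by mesenchyme. CXCR4, a chemokine receptor of endoderm and of other migrating cells, rose by 2.42 (SE 0.10), SPARC by 1.36, the laminin chains LAMA1 and LAMB1 by 0.90 and 0.70 and DAB2, an endocytic adaptor, by 0.95. FOXA3, the forkhead factor of endoderm in the list, was detected on 1 of 3 knock-down arrays and fell by 1.07 (SE 0.17, adjusted p = 0.00118). Its call is lost without background correction, with offset normexp correction and with the methods' t-test after Benjamini-Hochberg adjustment. The call for DAB2 is lost without background correction. Markers of endothelial and blood cells had a summed signal of 1145, 1081 and 1112 on the mock arrays and 1075, 1101 and 1092 on the knock-down arrays. It ran over 12 probes, the brightest that of HLA-DPB1, a class II HLA gene. Their mean log2 signal was 6.23, 6.18 and 6.14 on the former and 6.36, 6.37 and 6.37 on the latter. Of these probes, 7 rose and 5 fell (7 and 2 under median scaling), with a median of 0.67 (1.31 under median scaling). HLA-DQB1 was undetected after silencing and at least 3.63-fold lower (adjusted p = 5.02e-07), while VWF, von Willebrand factor, and TEK, the angiopoietin receptor, undetected before, were at least 2.23-fold (adjusted p = 5.34e-05) and 1.46-fold higher (adjusted p = 5.12e-06), TEK without a call when no background was subtracted. PROCR, HLA-DPB1 and CD74 fell too, with changes of -1.36, -0.85 and -0.76, the latter 2 without a call under median scaling.

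Genes of the response to interferon and to double-stranded RNA bear on the mock control, which carried no RNA duplex. Of 15 probes 7 rose and 6 fell (9 and 2 under median scaling), with a median of 0.35. ISG15, an interferon-induced ubiquitin-like protein, went from 7.60 ± 0.03 to 9.14 ± 0.27 and EPSTI1, an interferon-responsive stromal gene, from 5.99 ± 0.29 to 8.49 ± 0.06. IFITM1, an antiviral membrane protein that marks stem cells too, fell by 2.09 (SE 0.09), and TRIM22, a restriction factor, was at least 3.1-fold lower (adjusted p = 1.66e-06). The other knock-downs carried esiRNA as well. On the NANOG knock-down arrays the means were 7.49 for ISG15 and 6.17 for EPSTI1, and on the SOX2 knock-down arrays 9.21 and 8.43. IFITM1 had means of 9.84 on the former and 8.77 on the latter. TRIM22 had 7.06 on the former and was undetected on the latter. The part of a response to duplex RNA in these and other changes was not tested. Housekeeping genes had 3 tested named probes, and they did not move alike: B2M, the light chain of class I HLA, changed by 0.99 (SE 0.08), PPIA, a cyclophilin, by -0.77 (SE 0.07) and TUBB2A, a tubulin, by -0.43 (SE 0.08). Another 10 entries of that list have no tested named probe, so these 3 say nothing of reference genes that did not change. B2M was called higher and PPIA lower, the latter not under median scaling, and TUBB2A was called lower only under scaling to the probes detected on all 12 arrays, at an adjusted p under 0.05 with no minimum fold, and with the authors' means.

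Replicates were close to each other beside these changes. Across probes, correlations were 0.992 to 0.993 within mock, 0.995 to 0.996 within the OCT4 knock-down and 0.971 to 0.974 between them; probes are not independent replicates, so these describe the arrays only. With 3 arrays a group, their number limits the precision.

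The OCT4 knock-down was hardly told apart from the SOX2 knock-down. Tested directly over 11986 probes, 2 were called higher after silencing of OCT4 (0.0167%) and 0 lower by limma, against 1317 at an unadjusted p under 0.05; leaving out 1 array at a time gave 1 higher and 0 lower, and median scaling, which moves the median over these probes to 0.37, gave 749 and 1. GDF3 differed by 0.33 (95% confidence interval 0.04 to 0.62, adjusted p = 0.39), TAGLN by -0.16 (-0.47 to 0.14), WLS by -0.13 (-0.29 to 0.04) and UTF1 by 0.64 (0.42 to 0.85, adjusted p = 0.0931). For these genes, which changed strongly against mock, the intervals bound the differences to a small part of that change. They do not cover genes with smaller changes, and they do not show that the knock-downs were equal.

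Of the 2 probes called, which were looked up after their values were seen, 1 has no gene name here and was at least 1.21-fold higher (adjusted p = 0.00828), as no SOX2 knock-down array detected it. The other belongs to H2AZ2, a variant of H2A found at promoters, and its arrays are uneven. H2AZ2 had 4.26, 9.95 and 4.38 on the mock arrays, 10.94, 11.06 and 11.12 on the OCT4, 11.02, 10.87 and 10.60 on the NANOG and 4.61, 4.47 and 4.34 on the SOX2 knock-down arrays. It was bright on every OCT4 and NANOG knock-down array and on mock replicate 2, and undetected on the remaining mock and all SOX2 knock-down arrays. Against the SOX2 knock-down it was at least 52.5-fold higher (adjusted p = 1.29e-09), and against mock it was not called (4.84, SE 1.34, adjusted p = 0.0155). No other of the 47289 probes had arrays of 1 group over 3 log2 units apart (5.69 here, next 1.84). In a fit over all 12 arrays, which takes in this spread of the mock arrays, H2AZ2 is not called against the SOX2 knock-down either, and the cause was not tested.

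The NANOG knock-down was clearly different. Of 12207 probes tested, 1456 were higher and 1147 lower in the OCT4 than in the NANOG knock-down (21.3% in all), and 3814 and 384 under median scaling, which moves their median to 0.38. Genes were named here only if also called against mock. ANKRD1, undetected in the NANOG knock-down, was at least 46-fold higher after silencing of OCT4 (adjusted p = 2.12e-08) and NPPB, undetected likewise, at least 45.8-fold (adjusted p = 4.61e-08). GABRP was 5.22 higher, COL11A1 4.88 and EDN1 4.87. POU5F1 remained at 8.80, 8.78 and 8.93 on the NANOG knock-down arrays, a difference of -3.79 (adjusted p = 1.53e-07), and GDF3 at 10.44, 10.35 and 10.35, a difference of -4.0. NANOG itself was lower after silencing of OCT4 than after silencing of NANOG, where it stood at 6.66, 6.49 and 6.57, at least 2.6-fold (adjusted p = 7.61e-07). FEZ1 and VAT1L, the latter a homologue of a synaptic vesicle membrane protein, were lower than mock after silencing of OCT4 and higher after silencing of NANOG, with means of 9.43, 7.54 and 11.28 for FEZ1 and of 8.94, 6.50 and 9.81 for VAT1L in mock, OCT4 and NANOG knock-down. DPPA3 differed by -3.70 (adjusted p = 2.07e-07).

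**Figure D4:**
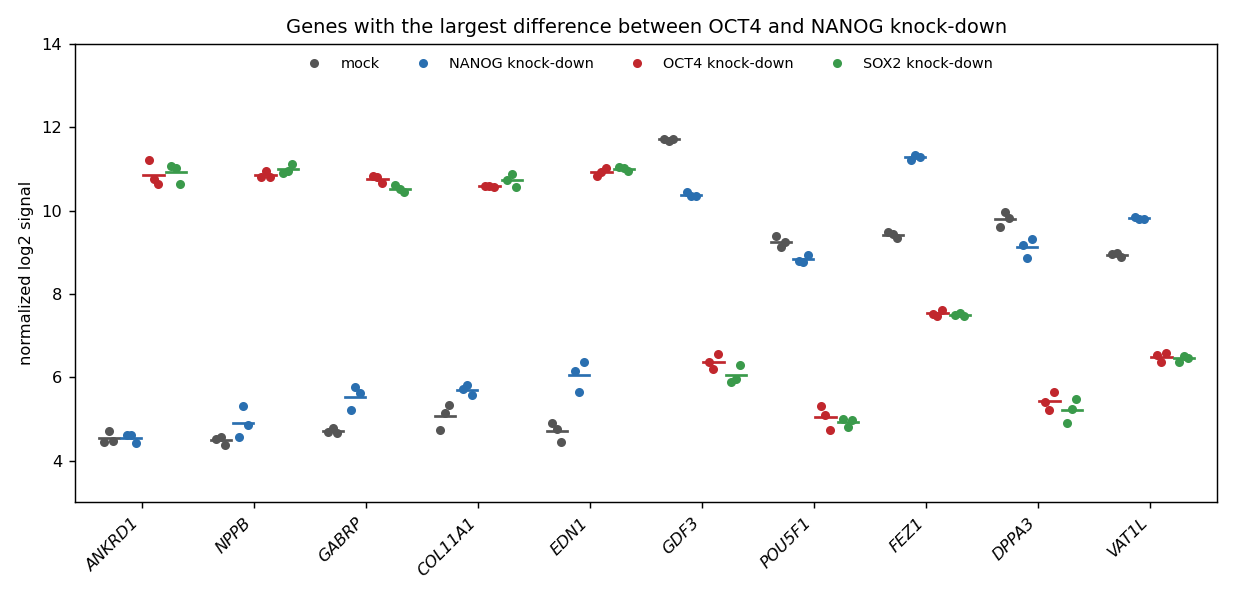
Normalized log2 signal (vertical axis) of 10 named genes on each array of mock (grey), NANOG (blue), OCT4 (red) and SOX2 (green) knock-down, 1 point an array, bars at the group means of 3 arrays. The OCT4 and SOX2 knock-down arrays lie side by side for each gene, as for FEZ1 at 7.54 and 7.50, while NANOG knock-down arrays lie elsewhere, at 11.28 for FEZ1.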

How the data were processed

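Each of the 12 arrays held 47289 probes. The deposited intensity of a probe is the mean bead signal as BeadStudio 1.0 wrote it per the labels, without background subtraction or normalization between arrays. The deposited detection value is a fraction that ranks the signal among negative control beads, and 1 minus it is the detection p. The authors' mean intensity per group, background-subtracted and rank-invariant normalized, was an alternative, with values under 20 set to 20. The study's lists of ratios and P values were not used.

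Intensities were corrected with neqc (normexp with detection p, quantile normalization over all 12 arrays) in R 4.3.3 with limma 3.58.1, 4 control probes were removed, and pairwise lmFit and eBayes were two-sided with Benjamini-Hochberg adjustment. Probes were tested if detected (p of at most 0.01) on all 3 arrays of 1 group at least, and called at an adjusted p under 0.01 and at least 1.5-fold. The steps were run on simulated data. At 1.5-fold, 18 of 50 changes were recovered, where a change at the threshold itself is called only if its estimate reaches that fold. At 2-fold 39 of 50 were recovered, at 4-fold 48 and at 8-fold 50.

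Of 2985 probes in the study's table, 2481 were named by accession, 102 by symbol and 57 by synonym through RefSeq; 345 table names without a match were not used. Of 74 symbols with more than 1 tested probe, 0 had probes called in opposite directions; the probe with the highest mean stands for a gene.

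Named were POU5F1 and NANOG; the 12 largest falls and rises among probes detected on all 6 arrays; the 8 and 6 largest bounds of gains and losses; 4 members of each list by size of change; and, for each direct comparison between knock-downs, the 5 largest differences each way also called against mock. Some of these genes are not reported here. Other members of lists were named after their values were seen. Members and lists were chosen with earlier results of these data known. Alternatives were the background correction, the scaling, the filter, the arrays fitted together, an intensity trend, a replicate block, the methods' t-test, the threshold, the authors' means and leaving out arrays.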

Additional observations from a re-analysis of the deposited data

Results flagged for a closer look

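These results stood out because the OCT4 knock-down differed from another knock-down treated and harvested alike, by limma's test of the difference itself. Against the NANOG knock-down, the fitted difference on the log2 scale was 6.31 for ANKRD1 and 5.94 for NPPB, which the NANOG knock-down arrays did not detect, so that only at least 46-fold and 45.8-fold can be stated; GABRP differed by 5.22, COL11A1 by 4.88 and EDN1 by 4.87, all higher after silencing of OCT4. In the other direction GDF3 differed by -4.0, POU5F1 by -3.79, FEZ1 by -3.74, DPPA3 by -3.70 and VAT1L by -3.32. Against the SOX2 knock-down, the fitted difference of H2AZ2 was 6.57, of which at least 52.5-fold can be stated as no SOX2 knock-down array detected it; mock replicate 2 alone among the mock arrays was bright, and in a fit over all 12 arrays the call is lost. The causes were not tested.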

How the results depend on the processing

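Against mock, calls higher numbered 857 without background correction, 5975 with median scaling, 1054 with normexp at offset 50, 973 over probes detected on all 6 arrays and 3313 at an adjusted p under 0.05 with no minimum fold, where 1660 were called as reported. Calls lower, 1309 as reported, numbered 606 without background correction, 334 with median scaling, 750 with normexp at offset 50 and 3634 at an adjusted p under 0.05 with no minimum fold. Leaving out 1 array at a time gave 1581 to 1691 higher and 1268 to 1377 lower. Fits over 12 arrays (1682 and 1314), an intensity trend (1693 and 1323), no filter (1637 and 1291), 6 arrays normalized alone (1676 and 1328), the methods' t-test (1487 and 1214; 1209 and 1022 after Benjamini-Hochberg) and the authors' means (2047 and 1356) stayed within 1.5 times.

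Against the SOX2 knock-down, where 2 were higher and 0 lower, median scaling gave 749 and 1; the higher count was 1 without background correction, with scaling to the probes detected on all 12 arrays, without a filter, with the replicate block and on leaving out any array (1 to 1), and 0 in a fit over 12 arrays. Against the NANOG knock-down, 756 and 470 were called without background correction and 3814 and 384 with median scaling; leaving out arrays gave 1370 to 1502 higher and 1060 to 1241 lower.

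Replicate numbers did not pair the samples: deviations of same-numbered mock and OCT4 knock-down arrays correlated at -0.20, -0.09 and 0.03, those of OCT4 and NANOG knock-down arrays at 0.21, 0.11 and -0.02 and those of OCT4 and SOX2 knock-down arrays at 0.16, -0.19 and 0.05, and the replicate block gave 1655 and 1305 calls against mock and 1436 and 1138 against the NANOG knock-down. A chip block was not run, as the files give no chip.

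Of 140 genes named by the rules given above 139 were called, and none of the 140 changed direction under any setting it was run under. Other list members, named after their values were seen, are not covered by these counts. Median scaling kept 128 of these calls, no background correction 132, normexp at offset 50 137, the methods' t-test after Benjamini-Hochberg 136 and the filter for detection on all 6 arrays 87, since it tests fewer; the other settings kept 139. Of 31 list medians relative to all probes tested, 9 moved by more than the spread between replicates under the other scalings, which are a single test here as each shifts arrays by a constant, and 0 reversed. Low signals near the detection limit are the least certain, and 3 arrays a group limit the precision. The causes of these shifts were not tested.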
